A study of Homo sapiens with 12 samples.

Results

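The genes described here are 39 members of the nuclear receptor family, found by their symbols in a table of 50868 genes measured in RPMI2650 cells. RPMI2650 is an established line of human epithelial cells from a nasal septum tumour, cultured here with 1 side exposed to air. Each of the 39 symbols matched 1 gene. RNA was sequenced from 12 libraries in 3 groups of wild-type cells. The groups were 4 libraries of cells given 1 µM perfluorohexanoic acid (PFHxA) for 7 days, 4 of cells given 1 µM perfluorobutanoic acid (PFBA) for 7 days, and 4 control libraries, for which no day and no vehicle are recorded. PFHxA and PFBA are fluorinated analogs of fatty acids that differ in chain length, the chain of PFHxA being the longer. The comparisons address which of these receptors the line expresses and how they differed between the groups. Nothing in the labels ties the libraries of a group to separate cultures, so p-values measure the spread between these libraries, which may be technical.

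Nuclear receptors are transcription factors that bind DNA through a pair of zinc fingers and, in many cases, bind a small fat-soluble ligand such as a fatty acid, a retinoid, a steroid or a thyroid hormone. Receptors of the peroxisome proliferator-activated (PPAR), liver X, retinoic acid, vitamin D and thyroid hormone types bind DNA as pairs with a retinoid X receptor (RXR). Steroid receptors bind as pairs of themselves, and orphan receptors have no settled natural ligand. With ligand a receptor recruits coactivators, and without it many recruit corepressors. PPARs are the members most discussed for perfluoroalkyl acids, because they bind fatty acids and their mimics.

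The family is held together by the DNA-reading stretch of the first zinc finger, called the P box, which touches the bases of the recognition site. All 39 members have this finger in their GENCODE 29 transcripts (GRCh38). The 39 members fall into 7 groups by the 5 residues that the P box encodes. The largest group holds 26 members, among them every PPAR, RXR, retinoic acid, thyroid hormone and NR4A receptor, and writes those residues in 18 different ways. The coding strand is given for 7 members that the results turn on or that stand for another group, 10 codons each, with the 5 codons of the P box in capitals.
PPARD: tgtGAGGGGTGCAAGGGCttcttccgtcgt
RXRA: tgcGAGGGGTGCAAGGGCttcttcaagcgg
NR2C2: tgtGAAGGTTGCAAAGGTttcttcaaaagg
NR2F2: tgcGAGGGCTGCAAGAGCttcttcaagcgc
NR2F6: tgcGAGGGCTGCAAGAGCtttttcaagcga
NR3C1: tgtGGAAGCTGTAAAGTTttcttcaaaaga
ESRRA: tgtGAGGCCTGCAAAGCCttcttcaagagg
The stretches lie at chr9:134408963-134408992 (plus strand, exon 4) for RXRA, chr3:15020776-15020805 (plus strand, exon 5) for NR2C2, chr15:96332391-96332420 (plus strand, exon 1) for NR2F2, chr19:17244975-17245004 (minus strand, exon 1) for NR2F6, chr5:143314012-143314041 (minus strand, exon 3) for NR3C1 and chr11:64307465-64307494 (plus strand, exon 2) for ESRRA. That of PPARD is split over 2 exons between chr6:35420267 and chr6:35421834 on the plus strand. PPARD, RXRA and NR2C2 encode the same 5 residues. NR2F2 and NR2F6 share another set with NR2F1, as NR3C1 does with the mineralocorticoid and progesterone receptors and ESRRA with ESRRG.

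The libraries held 16941599 to 21879105 counts each, and the 3 groups overlapped in depth. Of the 39 members, 28 had enough counts to be tested, among 16554 genes tested in all. Levels between genes are given as CPM per kilobase of the longest annotated transcript (CPM per kb). The cells carried the epithelial markers KRT19 (mean 254 CPM per kb), KRT8 (112), KRT18 (52.5) and EPCAM (24.0), but CDH1 was low (1.96). Basal airway markers were split, with KRT5 at 761 CPM per kb, KRT14 at 0.298 and TP63 at 0.370. Of the ciliated airway markers, FOXJ1 averaged 3.02 CPM per kb and DNAH5 0.0549. Of the secretory airway markers, SCGB1A1 was at 0 in every library, and MUC5AC and MUC5B averaged 0.0686 and 0.112 CPM per kb. Markers of other cell types were uneven. Of 3 leukocyte genes PTPRC and CD3E averaged 0.00476 and 0.00331 CPM per kb and CD68 0.904, and of 4 fibroblast genes DCN and LUM averaged 0.00367 and 0.00396, PDGFRA 0.282 and COL1A1 0.343. Of 3 endothelial genes VWF and PECAM1 averaged 0.0530 and 0.0826 CPM per kb, but CDH5 averaged 2.10, near the level of CDH1. The libraries were not alike in the relation of a gene's count to its GC content. On the log2 scale the slope per 10 points of GC lay between 0.0674 and 0.0984 in the PFHxA libraries, between -0.0683 and -0.00362 in PFBA and between -0.0621 and -0.00849 in control. The PFHxA libraries stood apart from both other groups, and this trend and the PFHxA group cannot be told apart by the design. Results for PFHxA are therefore given with and without that trend. In bulk RNA, fewer cells of a type and less RNA per cell cannot be told apart.

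By the mean over 12 libraries, 18 members were at or over 1 CPM per kb, 9 were between 0.1 and 1 CPM per kb and 12 were below 0.1 CPM per kb. Of all genes in the table with a transcript length, 26.2% were at or over 1 CPM per kb. The 4 highest members, THRA, NR2F6, RARG and PPARD, made up 49.7% of the summed level of the 39. THRA, the thyroid hormone receptor alpha, averaged 60.3 CPM per kb (range 54.4 to 65.7), above every library of NR2F6, an orphan receptor of the COUP family, at 39.3 CPM per kb (range 34.7 to 42.5). NR2F6 in turn lay above the retinoic acid receptor RARG at 30.7 CPM per kb (range 27.8 to 32.6). RARG overlapped PPARD. PPARD averaged 26.6 CPM per kb (range 22.6 to 29.9), RARA 25.6 (21.1 to 31.1), NR2F2 (COUP-TFII) 25.01 (21.3 to 27.4) and ESRRA 24.3 (16.6 to 28.7). The ranges of these 4 overlapped one another. Within every library PPARD lay above NR2F2, and the rest of their order is not settled. They were followed by RXRB at 15.6, NR1D1 at 15.4, NR1H2 at 10.7, NR2C2 at 8.65, NR2C1 at 8.32, RXRA at 6.36, NR4A1 at 5.38, NR1D2 at 3.11, NR1H3 at 2.43, NR6A1 at 2.27 and PPARA at 1.43 CPM per kb. PPARA lay between 0.777 and 1.30 CPM per kb in 11 libraries and at 5.66 in PFHxA b. The glucocorticoid receptor NR3C1, at 0.990 CPM per kb, was just below that level.

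**Figure D1:**
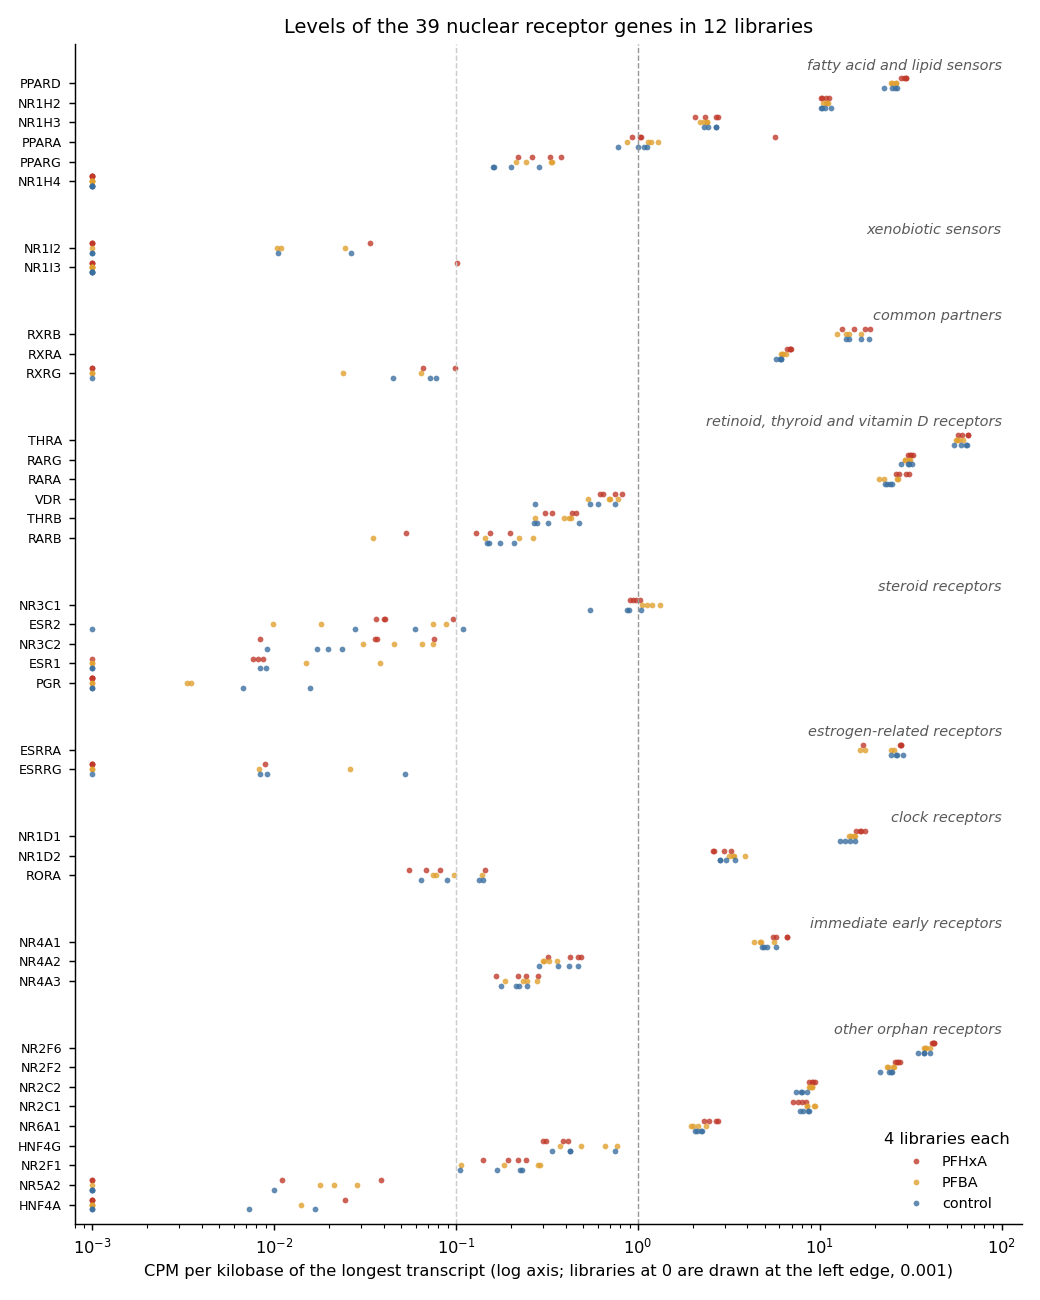
CPM per kilobase of the longest transcript of the 39 nuclear receptor genes on a log axis, by role, with 1 point for each of 12 libraries (PFHxA, PFBA and control from top to bottom in each row) and libraries at 0 drawn at the left edge. The 18 members with a mean at or over 1 CPM per kb have most of their points right of the darker dashed line, and the groups lie close to each other in nearly every row, PPARA in 1 PFHxA library being the point farthest from its neighbours.

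The share of the leading gene within 9 subfamilies ran from 51.0% for NR2C2 to 99.4% for THRA. PPARD was 94.3% of the summed PPAR level on average over the 12 libraries, against 4.82% for PPARA and 0.925% for PPARG. THRA was 99.4% of the thyroid hormone receptor level and NR1D1 83.1% of the REV-ERB level. NR1H2 (liver X receptor beta) was 81.5% of the liver X receptor level and NR4A1 89.8% of the NR4A level. The split was more even among RXRs, with RXRB at 70.7% and RXRA at 29.1%, and among retinoic acid receptors, with RARG at 54.5% and RARA at 45.2%. In the NR2F group NR2F6 held 60.9% and NR2F2 38.8%. Of the NR2C receptors, NR2C2 held 54.0% ± 2.14 with PFHxA, 50.0% ± 1.27 with PFBA and 48.8% ± 2.54 in control (SD, n = 4 each). These shares depend on the transcript taken for each gene's length.

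Receptors that sense foreign chemicals, bile acids and most steroids were near the floor. The farnesoid X receptor NR1H4 had no count in any of the 12 libraries, which allows up to 3 counts per library, or 0.137 to 0.175 CPM. The pregnane X receptor NR1I2 had 10 counts over the 12 libraries and the constitutive androstane receptor NR1I3 had 3, all 3 in PFHxA d. For the estrogen receptors, ESR1 had 12 counts and ESR2 65, the progesterone receptor PGR had 8 and the mineralocorticoid receptor NR3C2 had 51. RXRG (19 counts), ESRRG (12), NR5A2 (13) and HNF4A (8) complete the 11 members that were not tested. Differences in these 11 were not tested. NR3C2 had 4, 4, 8 and 1 counts in PFHxA libraries, 4, 5, 8 and 9 in PFBA libraries, and 3, 2, 1 and 2 in control libraries. The spans of ESR1 and ESR2 overlap SYNE1 and SYNE2 on the opposite strand, which averaged 1330 and 1851 counts a library, and since the strand setting of the counting is not given in the sources used here, their few counts may not be their own. NR1I3, with 3 counts in all, overlaps TOMM40L on the opposite strand, which averaged 422 counts a library.

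In the comparison of PFHxA with control, 7 of the 28 tested members rose and none fell. The edgeR quasi-likelihood test with Benjamini-Hochberg adjustment over all 16554 genes called 14.9% of all genes, 6.08% higher and 8.82% lower. The 7 were PPARD, NR2C2, RXRA, NR1D1, NR2F6, RARA and NR2F2, with rises of 0.17 to 0.27 on the log2 scale. DESeq2 and limma-voom called the same 7 members, when they called 17% and 14.6% of all genes. All 7 belong to the 18 members at or over 1 CPM per kb, and of all 13060 tested genes at or over that level 7.44% rose and 18.4% were called. At an unadjusted p under 0.05 there were 9 members, against 28.5% of all genes. Libraries of 8 members (the 7 and NR6A1) lay above every control library and of 0 below, against 9.49% and 11.2% of all genes. The median log2 fold change was 0.15 over the 28 members, against -0.00 over all genes, and 20 of the 28 were above 0 against 49.4% of all genes. With the trend over GC content and length removed, 1 of 28 members (NR2C2, higher) passed, when 2.65% of all genes did (0.948% higher and 1.7% lower), and the median of the 28 was 0.08. The 7 genes have transcripts of 44.1 to 71.1% GC, with a median of 59.5%, against a median of 48.5% for all tested genes. Of the uncalled members at or over 1 CPM per kb, THRA, RARG, NR1H2, ESRRA, RXRB and NR4A1 are at 58.5 to 63.2% GC. NR1H3, NR6A1, PPARA, NR2C1 and NR1D2 are at 38.5 to 55.4%. Spearman correlation of GC content with log2 fold change was 0.24 over the 28 members and 0.03 over 17 at or over 10 CPM.

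**Figure D2:**
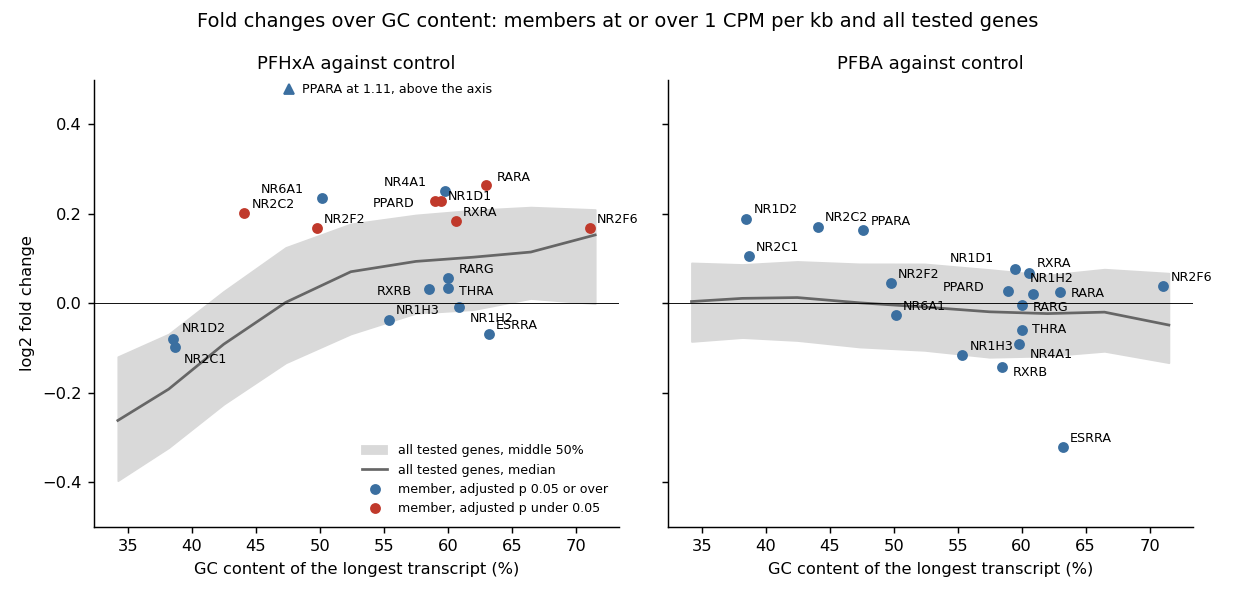
Log2 fold change (vertical axis) over GC content of the longest transcript (horizontal axis, percent) for the 18 members at or over 1 CPM per kb, with the median and middle 50% of all tested genes in bins of GC content. For PFHxA against control the line for all genes climbs with GC content, and NR2C2 is the called member at the lowest GC content, 44.1%. PPARA, at 1.11, is marked above the axis, and for PFBA against control the line is nearly flat and no member passed the test.

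Among the fatty acid and lipid sensors, PPARD was the 1 member of 5 tested that passed, when 6.08% of all genes rose. PPARD encodes PPAR delta, which drives genes of fatty acid burning, and lies at chr6:35342558-35428191. It had 113, 110.0, 113 and 106 CPM in the PFHxA libraries a to d, 99.0, 98.9, 93.5 and 92.6 CPM in the PFBA libraries, and 97.5, 94.5, 99.8 and 85.1 CPM in the control libraries. Every PFHxA library was above every PFBA and every control library, and PFBA and control overlapped. The level with PFHxA was 1.17-fold that of control (log2 0.23, SE 0.05, 95% interval 0.12 to 0.34, edgeR adjusted p = 0.0101), and the call held in all 12 fits that each left out 1 library. It was lost when the GC and length trend was removed (log2 0.12, interval 0.02 to 0.22, adjusted p = 0.216). PPARD transcripts are 59.0% GC, and 10.7% of all tested genes between 55 and 60% GC rose with PFHxA.

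The 250 bases before the RefSeq start of PPARD, chr6:35342308-35342557 on the plus strand of GRCh38.p14, are 70.8% GC and are shown because PPARD was the member called both against control and against PFBA. GC boxes, the letters GGGCGG on either strand, are in capitals.
PPARD: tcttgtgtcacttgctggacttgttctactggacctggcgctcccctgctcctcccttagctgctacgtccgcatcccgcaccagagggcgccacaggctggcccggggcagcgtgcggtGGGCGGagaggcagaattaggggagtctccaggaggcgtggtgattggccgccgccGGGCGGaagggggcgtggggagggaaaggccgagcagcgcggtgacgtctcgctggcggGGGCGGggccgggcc
The window holds 3 GC boxes, a motif found in 42.6% of 35116 RefSeq windows of this length and in 19 of the 35 members with a window. It holds no AGGTCA, the core site read by most members, which 12.1% of all windows and 6 of the 35 hold.

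PPARA, the receptor through which fibrates act in liver, did not pass in any comparison and 1 library decided its mean. It had 9.23, 56.6, 10.3 and 10.3 CPM in PFHxA libraries, 8.70, 12.9, 11.3 and 11.8 CPM in PFBA libraries, and 10.8, 10.04, 11.3 and 7.76 CPM in control libraries. Only PFHxA b, with 1071 counts, stood above the other 11 libraries, which overlapped. The fitted difference of PFHxA from control was 1.11 on the log2 scale (interval -0.18 to 2.41, edgeR adjusted p = 0.245), and without PFHxA b it was 0.0021 (adjusted p = 0.996). PPARG, the receptor of fat cells, was near the floor of detection, with 14, 10, 12 and 9 counts in PFHxA libraries, 15, 8, 14 and 10 in PFBA libraries, and 7, 8, 6 and 10 in control libraries. These counts overlapped, and the log2 difference of PFHxA from control was 0.56 with an interval of -0.10 to 1.21. NR1H2 and NR1H3, the oxysterol receptors, had adjusted p-values of 0.943 and 0.863 in PFHxA against control, with intervals of -0.13 to 0.11 and -0.26 to 0.18.

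Of the common partners, RXRA rose and RXRB did not pass. RXRA, at chr9:134317098-134440585, had 38.1, 39.4, 40.1 and 39.4 CPM in PFHxA libraries, 36.1, 35.7, 37.7 and 35.5 CPM in PFBA libraries, and 33.2, 35.2, 34.7 and 35.3 CPM in control libraries. The 3 groups did not overlap, with PFHxA highest and control lowest. PFHxA was 1.14-fold control (log2 0.18, SE 0.04, edgeR adjusted p = 0.0154) in all 12 fits that left out a library, and PFBA was 1.05-fold control (adjusted p = 0.638). After removal of the GC and length trend, the difference of PFHxA from control was 0.02 on the log2 scale (adjusted p = 0.893), and RXRA transcripts are 60.6% GC. RXRB had 38.5, 44.7, 55.0 and 51.6 CPM in PFHxA libraries, 36.3, 49.0, 40.7 and 42.3 in PFBA libraries, and 40.7, 54.4, 48.8 and 41.9 in control libraries. All 3 groups overlapped widely (PFHxA against control, interval -0.25 to 0.31), so the RXR transcript held in greater amount was not shown to differ. RXRG, the form of muscle and nerve, had at most 4 counts in any library.

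In the group of retinoid, thyroid and vitamin D receptors, RARA was called among 6 tested, when 6.08% of all genes rose. RARA, which turns on genes of differentiation with retinoic acid, lies at chr17:40309192-40357643. It had 79.9, 94.5, 83.4 and 91.1 CPM in PFHxA libraries, 81.0, 81.5, 64.1 and 69.0 CPM in PFBA libraries, and 73.6, 76.1, 69.2 and 71.3 CPM in control libraries. PFHxA libraries were all above the controls and overlapped PFBA. The rise over control was 0.27 on the log2 scale (SE 0.08, edgeR adjusted p = 0.0380), and the call was lost in 6 of 12 fits, those that left out PFHxA b, c or d or control a, c or d (adjusted p up to 0.105), and with the GC and length trend removed (log2 0.16, adjusted p = 0.341). RARG had intervals of -0.05 to 0.16 in PFHxA and -0.11 to 0.10 in PFBA, each against control, and the same 2 intervals for the more abundant THRA were -0.10 to 0.16 and -0.19 to 0.07.

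THRA, at chr17:40058290-40093867, had 321, 318, 281 and 294 CPM in PFHxA libraries, 274, 302, 278 and 285 CPM in PFBA libraries, and 291, 313, 316 and 266 CPM in control libraries. Its groups overlapped. THRB, VDR and RARB averaged 0.366, 0.643 and 0.157 CPM per kb, and none passed in any comparison. VDR, the vitamin D receptor, had 24 counts in control c against 56 to 61 in the other 3 control libraries. RARB averaged 0.134 CPM per kb with PFHxA, 0.166 with PFBA and 0.171 in control, and its libraries overlapped, at 2 to 17 counts each.

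RARB is itself a textbook target of retinoic acid receptors, through a direct repeat close to the start of its shorter transcript. Its window is shown for the motif that these receptors read. The 250 bases before that RefSeq start are chr3:25428013-25428262 on the plus strand of GRCh38.p14, with the repeat (GTTCA and AGTTCA, 5 bases apart) in capitals. It was searched on both strands.
RARB: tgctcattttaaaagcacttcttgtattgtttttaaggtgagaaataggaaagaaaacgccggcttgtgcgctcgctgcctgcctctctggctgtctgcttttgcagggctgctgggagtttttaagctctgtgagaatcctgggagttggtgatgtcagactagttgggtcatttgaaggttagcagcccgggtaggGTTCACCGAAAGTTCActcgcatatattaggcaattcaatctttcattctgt
The repeat begins 52 bases before the start, and 11 of 35116 windows (0.0313%) hold it. The letters searched were those of the RARB repeat, so its presence in this window was fixed in advance. A match is a run of letters and not a measure of binding.

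Steroid receptors were represented by NR3C1, the glucocorticoid receptor, the 1 member of 5 that was tested. It had 7.10, 6.55, 6.87 and 7.46 CPM in PFHxA libraries, 7.65, 8.20, 8.67 and 9.66 CPM in PFBA libraries, and 3.96, 7.61, 6.31 and 6.48 CPM in control libraries. PFBA libraries were above every control and every PFHxA library, and control a was the lowest of the 12. PFBA was 1.41-fold control (log2 0.49, interval 0.16 to 0.83), which did not pass over all genes (unadjusted p = 0.00739, edgeR adjusted p = 0.347). The difference of PFHxA from control was 0.20 (adjusted p = 0.446) and that of PFHxA from PFBA was -0.29 (adjusted p = 0.259). It had 85 to 196 counts a library.

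ESRRA, an orphan receptor that drives mitochondrial genes with PGC-1 coactivators, split within its groups. It had 64.0, 63.8, 39.5 and 63.3 CPM in PFHxA libraries, 38.0, 40.4, 58.7 and 56.5 CPM in PFBA libraries, and 56.0, 60.03, 60.6 and 65.4 CPM in control libraries. PFHxA c and PFBA a and b stood near 40 CPM and the other 9 libraries were above 55 CPM. No comparison passed, with a log2 difference from control of -0.07 for PFHxA (interval -0.46 to 0.33) and -0.32 for PFBA (interval -0.72 to 0.07). ESRRA overlaps TRMT112 on the opposite strand by 284 bases, and TRMT112 differed from control by -0.04 with PFHxA (adjusted p = 0.631) and by -0.13 with PFBA (adjusted p = 0.443).

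Of the clock receptors, which link the day rhythm to metabolism, NR1D1 rose. NR1D1 encodes REV-ERB alpha, a repressor of BMAL1, and lies at chr17:40092787-40100725. It had 48.9, 46.6, 44.0 and 46.0 CPM in PFHxA libraries, 40.2, 43.1, 41.0 and 42.7 CPM in PFBA libraries, and 35.9, 40.8, 43.4 and 38.4 CPM in control libraries. Each PFHxA library was above all 8 others. PFHxA was 1.17-fold control (log2 0.23, SE 0.06, edgeR adjusted p = 0.0239), a call lost without control a, control d, PFHxA a or PFHxA d (adjusted p up to 0.0628) and with the GC and length trend removed (log2 0.14, adjusted p = 0.159). Its last 1081 bases overlap THRA on the opposite strand, so reads there may be shared, and THRA itself was 1.02-fold control. NR1D2 (REV-ERB beta), with transcripts of 38.5% GC, had an interval of -0.29 to 0.13 and RORA one of -1.03 to 0.41 in the same comparison. Of 5 tested clock genes that REV-ERB and ROR act on, 0 passed in PFHxA against control, when 14.9% of all genes did. CLOCK was at 49.2 ± 2.01 CPM with PFHxA and 56.0 ± 3.04 CPM with PFBA (SD, n = 4 each; adjusted p = 0.0243), a difference of -0.19 on the log2 scale that was 0.0024 with the GC and length trend removed. Its call was also lost without PFHxA b, PFHxA c or PFBA d.

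NR4A1, an immediate early receptor induced by growth and stress signals, was higher with PFHxA than with PFBA. It had 32.1, 32.1, 27.7 and 26.7 CPM in PFHxA libraries, 22.6, 27.2, 20.9 and 23.0 CPM in PFBA libraries, and 23.8, 27.9, 23.2 and 24.8 CPM in control libraries. The groups overlapped, since PFBA b and control b reached the level of the lower PFHxA libraries. PFHxA was 1.27-fold PFBA (log2 0.34, SE 0.09, edgeR adjusted p = 0.0326) and 1.19-fold control (adjusted p = 0.0908). The call against PFBA was lost in 5 of 12 fits, without PFBA a, c or d or PFHxA a or b (adjusted p up to 0.0948), and with the GC and length trend removed (log2 0.22, adjusted p = 0.261). NR4A2 and NR4A3 had 17 to 35 counts a library and passed nowhere.

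The remaining orphan receptors gave 3 of the 7 rises, NR2C2, NR2F6 and NR2F2, out of 7 tested, when 6.08% of all genes rose. NR2C2 encodes TR4, a receptor of direct repeats that can compete with other members for sites, and lies at chr3:14947584-15053600. It had 71.1, 73.6, 76.4 and 74.5 CPM in PFHxA libraries, 70.4, 71.9, 73.5 and 73.5 CPM in PFBA libraries, and 64.7, 68.9, 63.6 and 59.8 CPM in control libraries. All 8 libraries with an acid were above all 4 controls, and the libraries of the 2 acids overlapped. PFHxA was 1.15-fold control (log2 0.20, SE 0.05, edgeR adjusted p = 0.0119, called in all 12 fits that left out a library), and NR2C2 is the member that still passed with the GC and length trend removed (log2 0.18, interval 0.09 to 0.26, adjusted p = 0.0340). Its transcripts are 44.1% GC, a range (40 to 45%) in which 1.30% of all tested genes rose and 13.5% fell with PFHxA. PFBA was 1.13-fold control (log2 0.17, SE 0.05, unadjusted p = 0.00264), which did not pass over all genes (adjusted p = 0.304), and with the trend removed its log2 difference was 0.10 (adjusted p = 0.522). The 2 comparisons share their control libraries, and PFHxA against PFBA gave an interval of -0.07 to 0.13.

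NR2C2 shares 11141 bases of its span with MRPS25 and 841 with FGD5-AS1, both on the opposite strand. MRPS25 was 0.958-fold control and FGD5-AS1 1.00-fold control with PFHxA (adjusted p = 0.565 and 0.985). Its paralog NR2C1 was at 32.1 ± 2.21 CPM with PFHxA, 37.0 ± 1.99 CPM with PFBA and 34.4 ± 1.68 CPM in control (SD, n = 4 each). Every PFHxA library of NR2C1 was below every PFBA library, at an adjusted p of 0.0549. The upstream window of NR2C2, chr3:14947333-14947582 on the plus strand of GRCh38.p14, is shown with GC boxes in capitals, here read on the opposite strand, as NR2C2 is the member whose rise also passed with the GC trend removed.
NR2C2: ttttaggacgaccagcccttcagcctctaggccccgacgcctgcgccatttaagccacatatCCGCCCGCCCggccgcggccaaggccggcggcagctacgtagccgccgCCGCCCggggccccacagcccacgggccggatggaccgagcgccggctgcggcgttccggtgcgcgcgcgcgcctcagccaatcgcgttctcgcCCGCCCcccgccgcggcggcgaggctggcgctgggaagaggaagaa
It holds 4 GC boxes, of which a pair overlap, and no AGGTCA, and it is 74.8% GC, against a median of 58.0% over all windows.

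NR2F6, which represses cytokine genes in T cells of mice, lies at chr19:17231883-17245940. It had 102, 102, 99.6 and 101 CPM in PFHxA libraries, 89.7, 96.4, 92.5 and 90.9 CPM in PFBA libraries, and 83.5, 89.9, 96.4 and 90.0 CPM in control libraries. PFHxA libraries were above all others and close together. The rise over control was 1.12-fold (log2 0.17, SE 0.04, edgeR adjusted p = 0.0250), lost without control a, control b, PFHxA b or PFHxA d (adjusted p up to 0.0676) and with the GC and length trend removed (log2 0.05, adjusted p = 0.465). Its transcripts, at 71.1% GC, are the most GC-rich of the called members.

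NR2F2, which shapes veins, atria and mesenchyme in development, lies at chr15:96325938-96340263. It had 145, 141, 143 and 136 CPM in PFHxA libraries, 135, 133, 126 and 124 CPM in PFBA libraries, and 131, 132, 127 and 113 CPM in control libraries. PFHxA libraries were again above the other 8, and control d was the lowest. The rise was 1.12-fold (log2 0.17, SE 0.05, edgeR adjusted p = 0.0431). This call was the least stable of the 7, lost in 8 of 12 fits, those without PFBA b or c, control c or d or any PFHxA library (adjusted p up to 0.0878), and with the GC and length trend removed (log2 0.09, adjusted p = 0.315). NR6A1, the germ cell nuclear factor, was 1.18-fold control with PFHxA and did not pass (adjusted p = 0.0664), with no overlap between those groups. HNF4G had -0.44 (interval -1.04 to 0.16) and NR2F1 0.11 (interval -0.63 to 0.86) on the log2 scale.

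**Figure D3:**
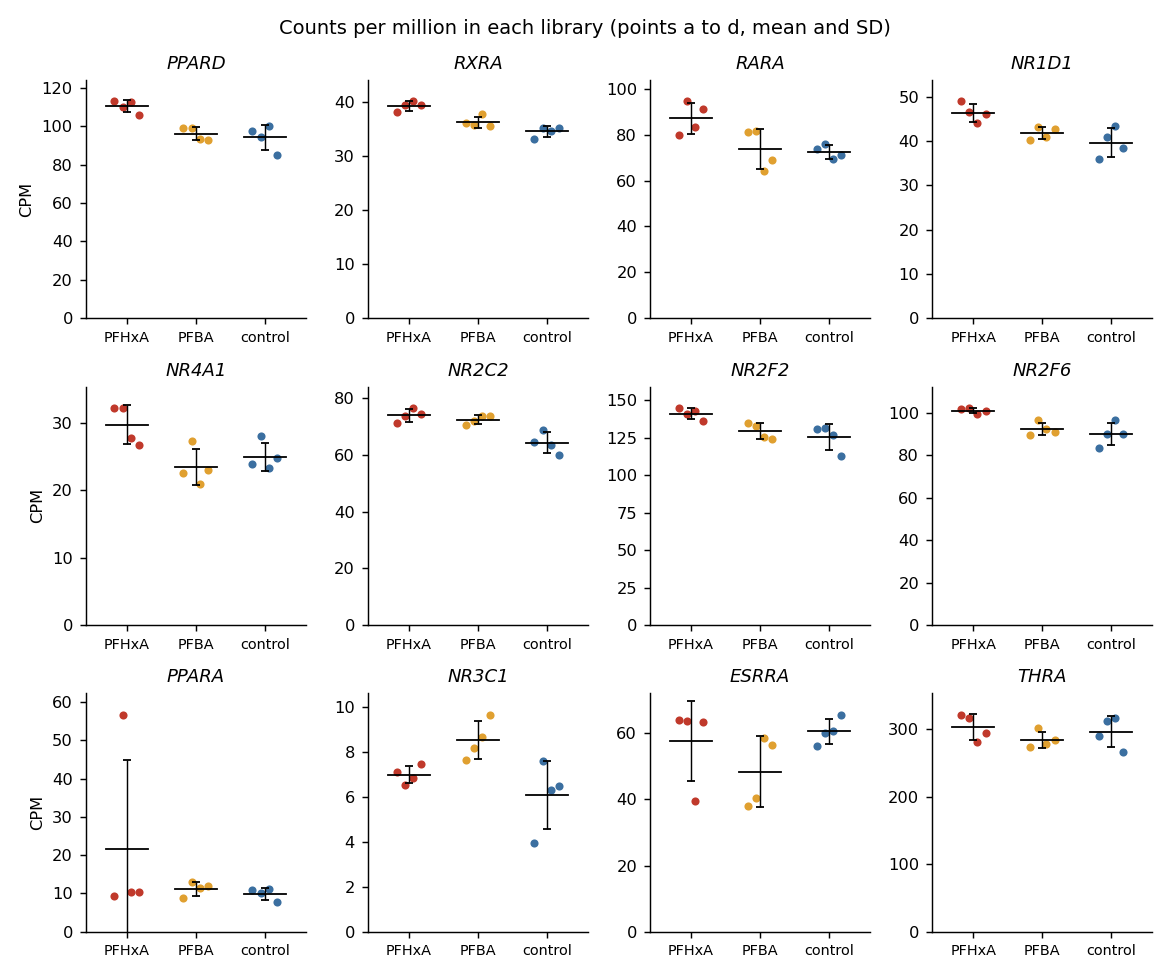
CPM (vertical axis from 0) in each library of the 8 members called in any comparison and of PPARA, NR3C1, ESRRA and THRA, with PFHxA, PFBA and control from left to right, points for the 4 libraries, and mean and SD. The rises with PFHxA are small beside the level of each gene, PFHxA b stands alone in PPARA at 56.6 CPM, and ESRRA shows libraries near 40 CPM in both acid groups.

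Which libraries enter the fit also moved the count for PFHxA against control. It ranged from 3 to 7 over the 12 fits that each left out 1 library, and was 4 without control a, control d or PFHxA b, and 3 without PFHxA d. PPARD, RXRA and NR2C2 were called in all 12 of these fits.

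In the comparison of PFBA with control, 0 of 28 members passed in edgeR, when 0.00604% of all genes (1 gene) did. At an unadjusted p under 0.05 there were 2 members, NR2C2 and NR3C1, described above, against 9.86% of all genes, and DESeq2 and limma-voom called 0 members, against 0.266% and 0% of all genes. Libraries of 3 members (RXRA, NR3C1 and NR2C2) lay above every control library, and of 0 below, against 3.17% and 2.8% of all genes. The median log2 fold change was 0.04 over the members and -0.00 over all genes. Among members at or over 1 CPM per kb the 95% intervals were widest for PPARA, from -1.15 to 1.47, and for ESRRA, from -0.72 to 0.07. For the 10 tested members under 1 CPM per kb the bounds ran from -0.85 (the lower bound of RORA) to 1.14 (the upper bound of PPARG). Widths differed by gene, the narrowest interval being 0.16 to 0.83 (NR3C1) and the widest -0.83 to 0.83 (RARB). A difference inside a gene's interval was not excluded for that gene.

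The acids were compared directly at the same dose and day, as 1 pair of compounds that differ in chain length. Of the 28 members, 2 were higher with PFHxA than with PFBA (PPARD and NR4A1) and 0 were lower, when 10.9% of all genes passed (3.84% higher and 7.07% lower). At an unadjusted p under 0.05 there were 11 members, against 26.6% of all genes. Libraries of 5 members lay above every PFBA library (PPARD, RXRA, NR1D1, NR2F2 and NR2F6) and of 2 below (NR3C1 and NR2C1), against 9.24% and 10.8% of all genes. PPARD was at 110.4 ± 3.28 CPM with PFHxA and 96.0 ± 3.42 CPM with PFBA (SD, n = 4 each), a 1.15-fold difference (log2 0.20, SE 0.05, edgeR adjusted p = 0.0228). That call was lost without PFBA c, PFBA d, PFHxA b or PFHxA c (adjusted p up to 0.0695). With the GC and length trend removed 0 members passed, when 0.887% of all genes did (0.225% higher and 0.663% lower), and PPARD had a log2 difference of 0.09 (interval -0.01 to 0.20). Over the 12 fits without 1 library the count ran from 0 to 4, with 0 without PFBA c, PFBA d or PFHxA b, 1 without PFHxA c, and 4 without control d or PFHxA a.

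For the other 6 members that rose against control, the difference between the acids did not pass. The 95% intervals on the log2 scale were 0.02 to 0.21 for RXRA, 0.07 to 0.41 for RARA, 0.02 to 0.28 for NR1D1, 0.03 to 0.23 for NR2F6, 0.01 to 0.23 for NR2F2 and -0.07 to 0.13 for NR2C2. These intervals are for 1 gene at a time, and the adjusted p-values were 0.114, 0.0667, 0.124, 0.0819, 0.141 and 0.736 in the same order. A difference between the acids is thus not settled for the first 5 of these genes, and for NR2C2 its interval reached no further than 0.13 above 0 and -0.07 below.

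**Figure D4:**
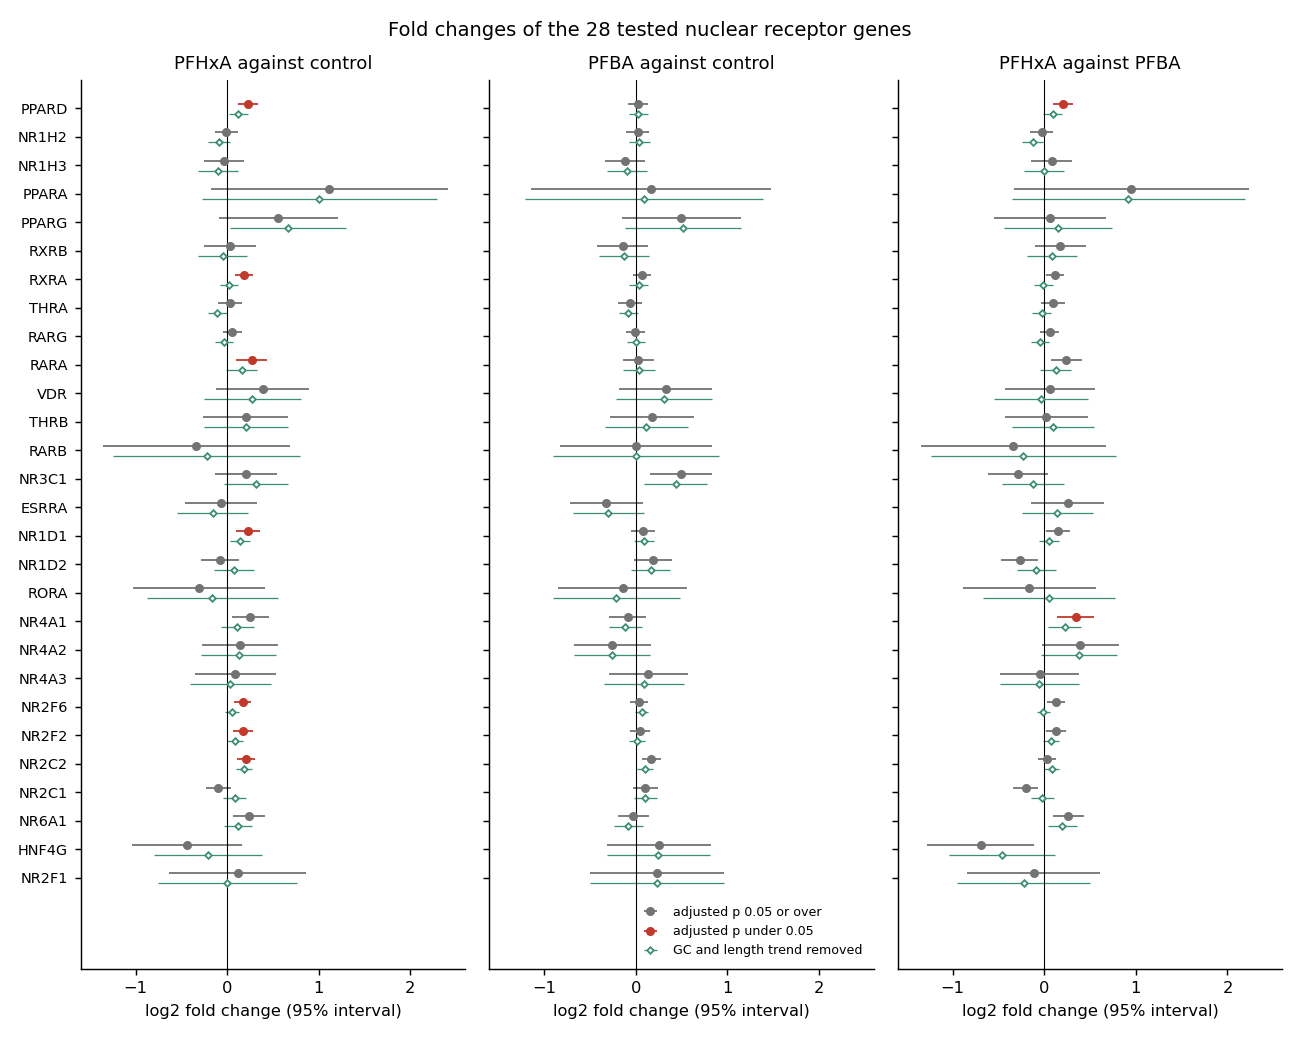
Log2 fold changes (horizontal axis, with 95% intervals) of the 28 tested members in 3 comparisons, as fitted (circles, red at an adjusted p under 0.05) and with the GC and length trend of each library removed (diamonds). Red circles number 7, 0 and 2 in the panels from left to right, the intervals of PPARA, PPARG and RARB are among the widest, and for PFHxA against control NR2C2 is at 0.20 as fitted and 0.18 with the trend removed.

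The genes that work with these receptors were read from the same fit. Of 16 coactivators, all tested, 5 rose and 0 fell with PFHxA against control, with a list median of 0.08, when 6.08% of all genes rose, 8.82% fell and the median of all genes was -0.00. CREBBP and EP300, histone acetyltransferases shared by the whole family, were at 169 ± 2.75 and 251 ± 8.50 CPM with PFHxA and 131 ± 8.85 and 204 ± 16.7 CPM in control (SD, n = 4 each). Their edgeR adjusted p-values were 0.00152 and 0.00421. KMT2D, a histone methyltransferase, was 1.30-fold control and NCOA6 1.22-fold, and PPRC1, a relative of PGC-1, was the fifth. With the GC and length trend removed CREBBP and NCOA6 passed and the other 3 did not. The p160 coactivators NCOA1, NCOA2 and NCOA3 were 1.05-, 1.01- and 1.03-fold control and did not pass.

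Among 11 corepressors, 2 rose and 1 fell with PFHxA, again against 6.08% and 8.82% of all genes. TBL1X, a part of a histone deacetylase complex, was 1.22-fold control (edgeR adjusted p = 0.00242). HR was 1.15-fold control (adjusted p = 0.0483), a call that held in 2 of 12 fits, those without PFBA c or d, and that limma-voom did not make (adjusted p = 0.0510). NRIP1 (RIP140) was the 1 that fell, at 146 ± 9.53 CPM with PFHxA, 181 ± 5.97 CPM with PFBA and 167 ± 5.84 CPM in control. It was 0.809-fold PFBA (adjusted p = 0.00253) and 0.876-fold control (adjusted p = 0.0191, lost without PFHxA b, c or d or control a). With the trend removed neither difference of NRIP1 passed (adjusted p = 0.0980 against PFBA and 0.260 against control). TBL1X was the 1 corepressor that passed against control with the trend removed. Of 7 chaperones that fold steroid receptors, HSP90AA1 fell to 1129 ± 89.3 CPM with PFHxA, against 1485 ± 64.7 CPM in control (0.760-fold, adjusted p = 0.00137, and 0.00608 with the trend removed). It was the 1 chaperone that passed against control, when 8.82% of all genes fell. The more abundant HSP90AB1 was 1.03-fold control (edgeR adjusted p = 0.527). Between the acids, CREBBP, KMT2D, MED24 and PPRC1 were higher with PFHxA than with PFBA (1.12- to 1.18-fold, adjusted p of 0.0281 to 0.0435), and none of these 4 passed with the trend removed. Of all genes 3.84% were higher in this comparison and 7.07% were lower. The 4 coactivators were called in 4, 5, 4 and 7 of 12 fits, each being lost without PFBA c or d or PFHxA a, b or c. CREBBP, KMT2D and MED24 were also lost without PFBA a or PFHxA d, and CREBBP and MED24 without control b. Of the chaperones, HSP90AA1 was called lower with PFHxA than with PFBA, where it was at 1393 ± 30.5 CPM. That call was also made with the trend removed. None of these 3 lists had a call in PFBA against control, when 0.00604% of all genes (1 gene) did.

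**Figure D5:**
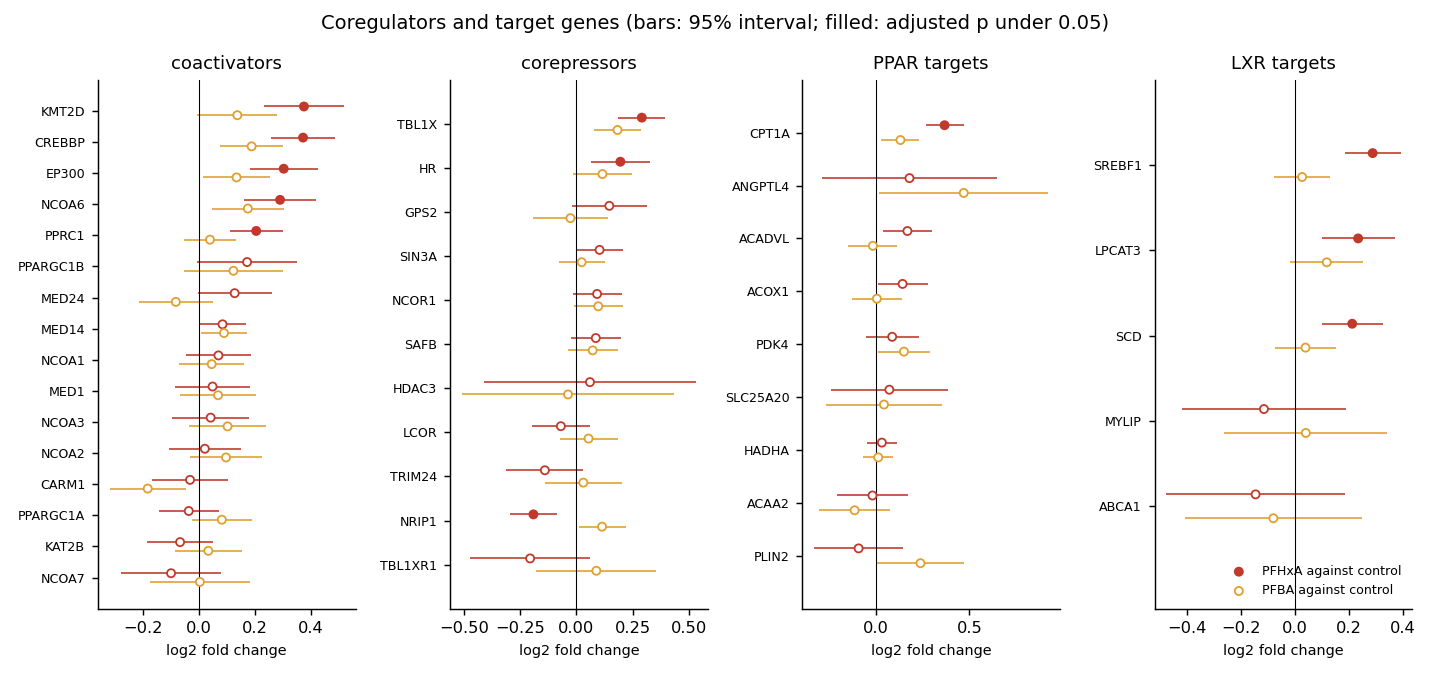
Log2 fold change against control (horizontal axis, with 95% intervals) of the tested coactivators, corepressors, PPAR targets and liver X receptor targets, with PFHxA above PFBA in each row and filled points at an adjusted p under 0.05. Filled points occur for PFHxA and not for PFBA, 5 and 0 for coactivators, 3 and 0 for corepressors, 1 and 0 for PPAR targets and 3 and 0 for liver X receptor targets. Of all genes 14.9% passed with PFHxA and 0.00604% with PFBA.

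Classical target genes were counted beside their receptors. Of 9 tested PPAR targets, 1 rose with PFHxA, against 6.08% of all genes. This was CPT1A, the gatekeeper of fatty acid entry into mitochondria, at 87.7 ± 4.68 CPM with PFHxA, 74.5 ± 2.40 CPM with PFBA and 68.0 ± 2.32 CPM in control (SD, n = 4 each). PFHxA was 1.29-fold control (adjusted p = 0.00117, and 0.00951 with the trend removed) and 1.18-fold PFBA (adjusted p = 0.00729, and 0.0891 with the trend removed). ANGPTL4 and PLIN2, further PPAR targets, were 1.13- and 0.938-fold control and did not pass, and PDK4 was 1.06-fold control, passing only with the trend removed (adjusted p = 0.0402).

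Of 5 tested liver X receptor targets, 3 rose with PFHxA, SREBF1 at 1.22-fold, LPCAT3 at 1.18-fold and SCD at 1.16-fold control, when 6.08% of all genes rose. The call of LPCAT3 was lost without PFHxA c or d or control b or d (adjusted p up to 0.0788). They are genes of fatty acid synthesis, desaturation and phospholipid remodelling, and SREBF1 was also above PFBA, at 89.8 ± 2.17 CPM with PFHxA and 74.9 ± 4.37 CPM with PFBA (SD, n = 4 each, edgeR adjusted p = 0.00507, and 0.243 with the trend removed). The cholesterol exporter ABCA1, the best-known target of the same receptors, was 0.903-fold control and did not pass, and none of the 3 rises passed with the GC and length trend removed. Their receptors NR1H2 and NR1H3 were given above.

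Of the other target lists, estrogen receptor targets had 2 rises of 3 tested (GREB1 at 1.19-fold and CCND1 at 1.08-fold), while ESR1 and ESR2 themselves were near the floor, and thyroid hormone receptor targets had 1 of 3 (HR), against 6.08% of all genes. CCND1 was called in 3 of 12 fits, those without PFBA b, PFBA d or control c, and lost in the others (adjusted p up to 0.0998), while GREB1 was called in all 12. Neither GREB1, CCND1 nor HR passed with the trend removed. No gene was called in PFHxA against control among 5 tested retinoic acid receptor targets, 6 glucocorticoid receptor targets, 3 farnesoid X receptor targets or 2 HNF4 targets, or the 1 tested target of the vitamin D receptor. Of all genes 14.9% were called in that comparison. Between the acids, CAMP, the tested vitamin D receptor target, was called lower with PFHxA than with PFBA (log2 -0.84). It had 203 counts over the 12 libraries. Of 3 estrogen receptor targets 1 was called higher with PFHxA than with PFBA. Neither call was made with the trend removed, and 3.84% of all genes were higher and 7.07% lower. None of the 5 targets of NR1I2 and NR1I3 had enough counts to be tested. For supply of ligands, RDH10, the enzyme that makes retinal from retinol, was 1.13-fold control (adjusted p = 0.00574, and 0.0210 with the trend removed). FABP5, which carries fatty acids and retinoic acid to PPARD, fell to 50.4 ± 2.10 CPM with PFHxA, against 59.2 ± 2.46 CPM in control (0.851-fold, adjusted p = 0.00782, and 0.0587 with the trend removed). With PFBA against control no gene of any of the 16 lists passed, when 0.00604% of all genes (1 gene) did.

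The P-box groups were set beside these counts. Of the 26 members that share the set of PPARD, 22 were tested and 5 rose with PFHxA, with a median log2 fold change of 0.16, when 6.08% of all genes rose and their median was -0.00. Of the 3 NR2F members, 3 were tested and 2 rose, with a median of 0.17. No member of the other 5 groups passed, of which NR3C1, ESRRA and HNF4G were tested.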

How the data were processed

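Per the labels, total RNA of 12 libraries was used, with a VAHTS library kit and NovaSeq sequencing. The values used here are the authors' deposited raw counts, 1 column per library and 1 row per Ensembl gene. Reads were aligned with HISAT2 2.0.4 to GRCh38 (hg38), per the submitters' processing notes. Counting program, annotation release and strandedness were not given in the sources used here. Column prefixes gave the groups, and the letters a to d are those of the columns. A further 12 columns of FPKM in the deposited table were not used, since 1 measure was kept per library. Levels between genes had been planned on them and are instead CPM per kilobase of the longest GENCODE 29 transcript.

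Genes were kept by filterByExpr (minimum count 10, total 15), scaled by TMM and fitted with all 12 libraries in 1 edgeR quasi-likelihood model (edgeR 4.0.16, R 4.3.3) with group as the only term, two-sided, adjusted by Benjamini-Hochberg over 16554 genes at 0.05. The fit was run on simulated counts, but the limits for accepting that check were loosened after its output was seen, so nothing rests on it. CPM uses TMM-scaled totals. An SE is the log2 fold over the root of its F statistic, and 95% intervals hold for single genes. As an alternative, library trends over GC content and length of that transcript were removed by spline offsets (5 degrees of freedom each). Others were DESeq2 1.42.0, limma-voom 3.58.1, other scaling, other filters, the 8 libraries compared alone, and leaving out each library. Total counts of 16941599 to 21879105 per library set the precision.

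P-box stretches were found by a zinc finger pattern in translated GENCODE transcripts and checked against its coding regions, and promoter windows are from RefSeq. Members and the 16 lists were chosen with earlier results of these data known. Values per library were given for members called in any comparison, PPAR and RXR genes, and the highest member of each role; those of VDR, CLOCK and other genes beyond this rule were named after their values were seen. From each list up to 4 called genes with the smallest p were to be named, and further ones were added after seeing the values. A further corepressor is not reported here and is left out of its list.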

Additional observations from a re-analysis of the deposited data

Results flagged for a closer look

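The values of 28 tested members in 3 groups gave 84 sets of 4 libraries, in each of which the highest and lowest library were set against the other 3. In 2 sets 1 library lay far from the rest, where about 1 set in 20 would be picked out by chance. PPARA in PFHxA b was at 56.6 CPM, and the other 3 PFHxA libraries were at 9.23 to 10.3 CPM. It was 5.48 times the median of the other 11 libraries, with 1071 counts. ESRRA in PFHxA c was at 39.5 CPM, with 63.3 to 64.0 CPM in the other 3 PFHxA libraries. PFBA a and b had a like level of ESRRA, 38.0 and 40.4 CPM.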

How the results depend on the processing

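No paired analysis was possible because the columns carry letters and not the replicate numbers of the labels. For PFHxA against control the 7 calls became 1 with the GC and length trend removed and 3 to 7 when 1 library was left out. In that comparison 2 named members lost their call with no filter on low counts. With only the 8 libraries compared, 1 lost it. For PFHxA against PFBA the 2 calls became 4 with a stricter filter on low counts, 6 with DESeq2, 0 with the trend removed and 0 to 4 when 1 library was left out. For PFBA against control the count was 0 under every alternative run, and 0 to 0 when 1 library was left out. The log2 difference of CLOCK between PFHxA and PFBA reversed, to 0.0024 with the trend removed. Over 793 single values of the named members under these alternatives, 727 kept their direction and side of the threshold, 42 lost the call, 5 gained it, 19 moved by more than the spread and none changed sign after a call. The cause of these changes was not tested. The order of levels was not recomputed from another unit. DESeq2 gave no adjusted p for 5 members in PFBA against control and 10 in each of the other comparisons, PPARA among them each time.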
